A study of Mus musculus with 2 samples.

Results

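The 10 genes described here act in mineralization or mark bone-lineage and dural connective tissue cells, and were chosen by symbol from the 32285 genes of the matrices: Alpl, Enpp1 and Phospho1 (enzymes), Mgp, Spp1, Ibsp, Sparc and Postn (secreted matrix proteins) and Runx2 and Sp7 (transcription factors). The data were 10x Genomics single-cell RNA-seq of whole dorsal meninges from male C57BL/6J mice, with 1 library of pooled tissue from 5 mice that had a Sham procedure and 1 library from 5 mice that had a mild closed-skull traumatic brain injury (TBI). Tissue was taken 1 week after the procedure, and the labels give the age as 10 weeks in one place and 10 to 12 weeks in another. With 1 library per group the mice cannot be told apart, so no difference between Sham and TBI has a replicate check, no test was made, and every interval below is a 95% counting interval that covers counting error only. In pooled dissociated tissue, a gain of cells of one kind in a library and a better yield of those cells cannot be told apart.

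Bone mineral forms when phosphate is released and its inhibitor pyrophosphate is removed. Tissue-nonspecific alkaline phosphatase (Alpl) cleaves pyrophosphate, Enpp1 makes it, and Phospho1 releases phosphate inside matrix vesicles. Matrix Gla protein (Mgp) and osteopontin (Spp1) restrain crystal growth, bone sialoprotein (Ibsp) is made by mature osteoblasts, Sparc (osteonectin) and Postn (periostin) are matrix proteins of many connective tissues, and Runx2 followed by Sp7 (osterix) directs cells to the osteoblast fate. The dura mater lies against the skull bone and shares its outer layer with the periosteum of the inner skull.

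In the mm10 genome the 10 genes lie as follows: Alpl at chr4:137741733-137796384, Enpp1 at chr10:24637914-24712159, Phospho1 at chr11:95824499-95832140, Mgp at chr6:136872435-136875823, Spp1 at chr5:104435118-104441050, Ibsp at chr5:104299171-104311469, Sparc at chr11:55394500-55423183, Postn at chr3:54361109-54391037, Runx2 at chr17:44495987-44814797 and Sp7 at chr15:102356606-102367182. Ibsp and Spp1 lie 123648 bases apart on the same strand, with Mepe, another gene of mineralized tissue, between them. Mepe had 0 UMIs (unique molecular identifiers, each standing for 1 captured RNA molecule) in the kept cells of both libraries, and so did Dmp1, their neighbour on the other side of Ibsp.

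RefSeq start sites (build GRCm38.p6, the assembly of mm10) were at hand for 8 of the 10 genes in 11 windows, with Mgp and Sp7 the ones not matched. The 250 bases before each start were searched on both strands for TGTGGT, the core letters that RUNX factors are known to bind, with ACCACA as its reverse complement. The letters were found in 3 of the 11 windows, those of Spp1, Enpp1 and Runx2 itself, and in 14.0% of all 32851 mouse windows. These 3 windows and that of Ibsp are shown because Spp1, Ibsp and Runx2 UMIs met in single cells described further on and Enpp1 acts against Alpl. A match is a description of letters and not a binding site, and the 3' counts do not show which start site was used. Capitals mark the match, which begins 128 bases before the start of Spp1 (chr5:104434861-104435110, plus strand), 144 bases before that of Enpp1 (chr10:24712160-24712409, minus strand) and 80 bases before that of Runx2 (chr17:44814628-44814877, minus strand). The Ibsp window (chr5:104299037-104299286, plus strand) held no match.
Spp1: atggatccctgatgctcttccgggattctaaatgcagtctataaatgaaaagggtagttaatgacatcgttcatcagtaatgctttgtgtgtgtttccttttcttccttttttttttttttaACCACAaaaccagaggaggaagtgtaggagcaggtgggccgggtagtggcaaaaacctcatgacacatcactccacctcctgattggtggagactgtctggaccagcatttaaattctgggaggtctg
Ibsp: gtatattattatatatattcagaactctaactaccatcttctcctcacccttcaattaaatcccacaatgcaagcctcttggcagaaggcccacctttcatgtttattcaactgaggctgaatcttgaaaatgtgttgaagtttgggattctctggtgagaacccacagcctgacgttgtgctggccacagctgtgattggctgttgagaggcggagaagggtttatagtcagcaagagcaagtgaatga
Enpp1: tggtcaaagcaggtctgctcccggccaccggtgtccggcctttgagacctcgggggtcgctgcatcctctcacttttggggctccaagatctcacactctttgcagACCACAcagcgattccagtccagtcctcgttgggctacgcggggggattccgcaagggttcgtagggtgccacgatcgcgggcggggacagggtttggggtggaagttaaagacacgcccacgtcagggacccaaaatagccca
Runx2: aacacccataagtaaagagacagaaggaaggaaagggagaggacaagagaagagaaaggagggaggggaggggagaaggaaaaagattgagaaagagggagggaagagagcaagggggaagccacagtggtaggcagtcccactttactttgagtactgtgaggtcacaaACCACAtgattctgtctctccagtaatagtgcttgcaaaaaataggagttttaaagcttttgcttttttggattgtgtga

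The Sham matrix had 2699 barcodes with 9527334 UMIs, and the TBI matrix 4349 with 15011079. After the filters that the study's methods state, 2043 Sham and 3773 TBI cells were kept, with median depths of 2764 and 2663 UMIs, and the libraries shared 20 cell barcodes, of which 14 were kept in both. The kept cells formed 28 clusters in 24 classes, found without the 10 genes among the clustering genes. A class was named "-like" from its markers, and the 6 clusters that the markers did not name are called by their 2 leading genes. Fibroblast-like cells (led by Fmod, Mfap4, Dcn and Clec11a) numbered 49 in Sham and 419 in TBI, 2.40% and 11.1% of cells, and held 3.26% and 11.6% of the UMIs. The Snhg11-Mir100hg cluster (53 and 293 cells) also held high Col1a1, at 3475 CPM against 4840 CPM in fibroblast-like cells, where CPM is the number of UMIs of a gene per 1000000 UMIs of the class. Its Malat1 level was 98991 CPM against 24231 CPM in fibroblast-like cells, and its median depth 1606 against 3370.5 UMIs. The paper reads T and B cell groups with high Malat1 as likely dying cells. Whether damaged cells make up part of this cluster was not tested, which limits the levels given for it below. The dural layer genes Foxc2 and Fxyd5 stood at 302 and 3896 CPM in fibroblast-like cells. The arachnoid gene Ptgds was at 920 CPM there and 33499.9 CPM in the Ptgds-Nnat cluster (34 and 72 cells). In that cluster 33.0% of cells had a Ptgds UMI, and 1 TBI cell held 3349 of the 7309 Ptgds UMIs.

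Fibroblast-like cells held 64.2% of all UMIs of the 10 genes over both libraries (interval 63.8 to 64.6%). This value mostly describes Mgp and Sparc, with 31748 and 20524 UMIs, most of them from TBI. By gene, the class held 70.0% of Mgp, 68.8% of Alpl, 68.7% of Spp1, 57.7% of Sp7 and 56.5% of Sparc. It held 38.3% of Postn, 32.2% of Enpp1, 23.7% of Runx2, 6.67% of Ibsp and 3.53% of Phospho1. Most UMIs of Alpl, Mgp and Sp7 were there in both libraries and most of those of Sparc in TBI, most Sham UMIs of Spp1 and Postn were in 1 cell of the class, Runx2 was highest in plasmacytoid dendritic-like cells, and Phospho1 lay almost wholly outside the connective tissue cells. The 10 genes thus did not share 1 cellular source, and the plot of levels by class shows this gene by gene.

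**Figure D1:**
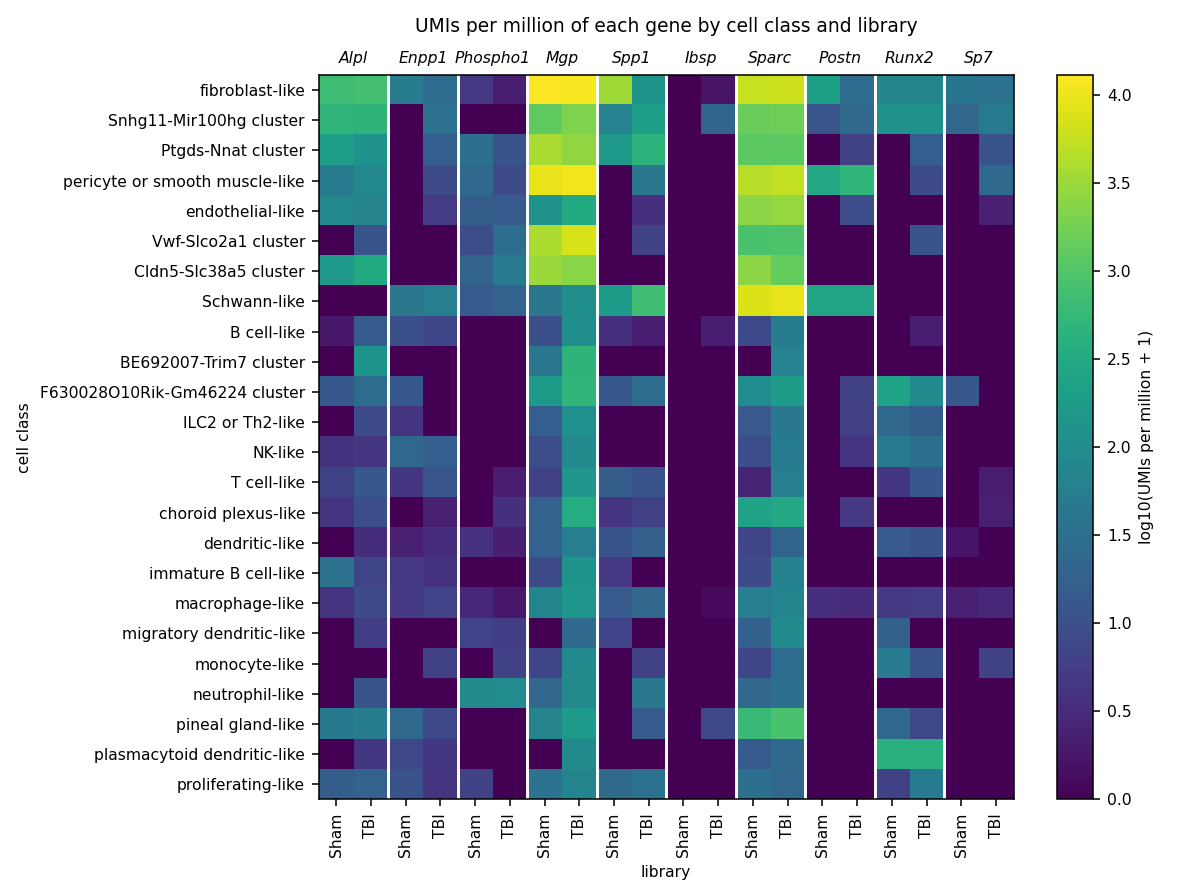
Levels of the 10 genes by cell class (rows) and library (columns, Sham then TBI for each gene), as log10 of CPM plus 1. Alpl and Mgp are at their brightest in fibroblast-like cells in both libraries, Runx2 in plasmacytoid dendritic-like cells, Phospho1 in neutrophil-like cells, and the faint Mgp and Sparc level of the immune classes is higher in TBI than in Sham.

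Alpl had 179 UMIs in Sham fibroblast-like cells and 1225 in TBI fibroblast-like cells, 697 and 760 CPM. Their log2 ratio, TBI over Sham, came to 0.12 (interval -0.10 to 0.36), so the levels per UMI in the 2 libraries were not separable at this depth. A UMI of Alpl was seen in 63.3% of the Sham and 64.9% of the TBI fibroblast-like cells, and in 0.307% and 4.38% of B cell-like cells. Immature B cell-like cells went the other way, with 34.9 CPM in Sham (9 UMIs) and 6.13 CPM in TBI (2 UMIs). Median depths were 4758 and 3141 UMIs in fibroblast-like cells and 3237 and 2714 UMIs in B cell-like cells. With every cell thinned to 1000 UMIs, which left out 2 Sham and 21 TBI fibroblast-like cells, the shares were 34.0% and 44.0%.

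The next levels of Alpl were in the Snhg11-Mir100hg cluster, at 487 and 474 CPM (44 and 257 UMIs). The Cldn5-Slc38a5 cluster, led by genes of brain and arterial vessels, had 165 CPM in Sham (interval 96.0 to 264 CPM) and 319 CPM in TBI (252 to 400 CPM). In that cluster the log2 ratio was 0.92 (interval 0.18 to 1.81), from 17 and 76 UMIs. Endothelial-like cells stood at 83.2 and 68.3 CPM, with overlapping intervals. Alpl is a known marker of vessel endothelium as well as of bone.

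Enpp1, the pyrophosphate-producing enzyme, had few UMIs, 52 in Sham and 125 in TBI over all kept cells. In fibroblast-like cells the level was 54.5 CPM in Sham (14 UMIs) and 26.7 CPM in TBI (43 UMIs), a log2 ratio of -1.07 (interval -1.93 to -0.046). One Sham cell held 8 of those 14 UMIs, and without it the ratio was -0.0034 (interval -1.14 to 1.62). Schwann-like cells had 41.4 and 56.0 CPM from 3 and 6 UMIs, and NK-like cells 23.5 and 16.0 CPM from 8 and 5 UMIs, so the order of these classes could not be settled by the counts. The Snhg11-Mir100hg cluster held 0 UMIs in Sham, which allows up to 33.2 CPM, and 19 UMIs in TBI (35.0 CPM).

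Phospho1, the phosphatase of matrix vesicles, was nearly absent from fibroblast-like cells, with 1 UMI in Sham and 2 UMIs in TBI. Most of its UMIs were in barcodes that the hemoglobin limit removed: 26 of 399 Sham UMIs and 59 of 261 TBI UMIs were in kept cells, 6.52% and 22.6%. For each of the genes with UMIs in both libraries other than Phospho1, at least 94.1% of its UMIs were in kept cells.

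Barcodes with over 50% hemoglobin UMIs (562 in Sham and 391 in TBI) held 282 CPM of Phospho1 in Sham (359 UMIs, interval 253 to 313 CPM) and 298 CPM in TBI (187 UMIs, interval 257 to 344 CPM). Barcodes with up to 5% hemoglobin held 3.21 and 4.15 CPM. A Phospho1 UMI was seen in 40.9% and 28.9% of the hemoglobin-rich barcodes and in 1.19% and 1.3% of those with up to 5%, although the hemoglobin-rich barcodes were shallower, with median depths of 2118.5 and 1402 UMIs against 2709 and 2581 UMIs. Phospho1 is also known from maturing red blood cells. The intervals of the level in hemoglobin-rich barcodes overlapped between the libraries, while the number of such barcodes was lower in TBI.

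**Figure D2:**
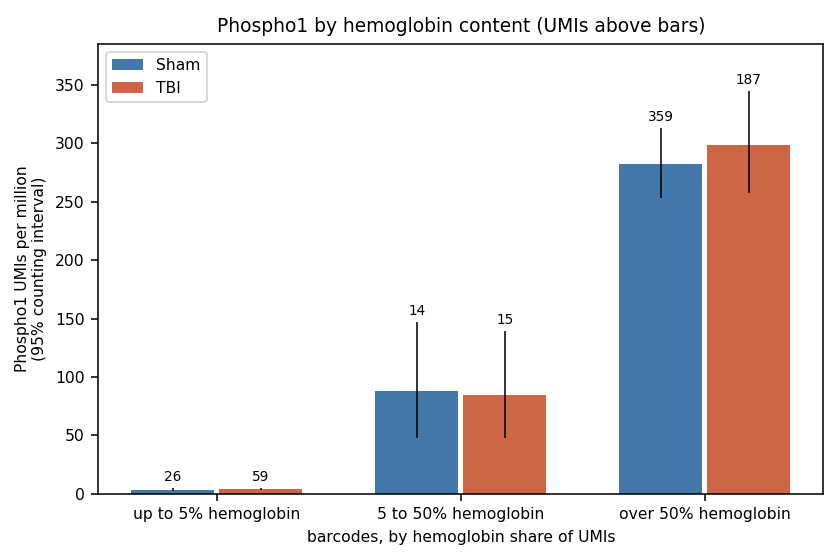
Phospho1 CPM (vertical axis) in all barcodes of each library, grouped by the share of hemoglobin UMIs, with bars for Sham and TBI, 95% counting intervals as lines and the UMI number above each bar. Both libraries climb from under 5 CPM in barcodes with up to 5% hemoglobin to 282 and 298 CPM in those with over 50%.

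Among the kept cells, Phospho1 was highest in neutrophil-like cells, at 86.7 CPM in Sham (4 UMIs) and 97.1 CPM in TBI (9 UMIs). In TBI the next level was 50.4 CPM in the Cldn5-Slc38a5 cluster (12 UMIs, interval 26.1 to 88.1 CPM), which overlaps the neutrophil-like interval of 44.4 to 184 CPM, and 29.9 CPM in the Vwf-Slco2a1 cluster (11 UMIs). B cell-like cells had 0 UMIs in 326 Sham and 274 TBI cells, which allows up to 0.920% and 1.09% of such cells to have a UMI and sets no limit on cells that express the gene.

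Mgp, the vitamin K-dependent inhibitor of calcification, had its highest level in fibroblast-like cells. Fibroblast-like cells held 3338 UMIs in Sham and 18885 in TBI, 13003 and 11723 CPM, and 100% and 98.1% of these cells had a UMI. The log2 ratio was -0.15 (interval -0.20 to -0.10), a difference in level of 0.902-fold. One Sham cell held 579 of the 3338 UMIs, and without it the log2 ratio was 0.054 (interval -0.0030 to 0.11), so the direction rested on that cell. Pericyte or smooth muscle-like cells came next, with 9350 and 10651 CPM. Mgp is known from the walls of arteries, where it keeps the vessel wall free of mineral.

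The Vwf-Slco2a1 cluster, whose leading genes Vwf and Selp mark venous endothelium, had 4111 CPM of Mgp in Sham (477 UMIs) and 7279 CPM in TBI (2681 UMIs). Its log2 ratio was 0.82 (interval 0.68 to 0.97). In the Cldn5-Slc38a5 cluster the level was 3083 and 2449 CPM, a log2 ratio of -0.33 (interval -0.53 to -0.13). Endothelial-like cells had 123 and 319 CPM, a log2 ratio of 1.36 (interval 0.92 to 1.85). Many classes outside the vessels also had more Mgp in TBI, as described next, and the part of this in the endothelial-like ratio was not tested.

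In immune cells Mgp was low in both libraries and higher in TBI. Its level was higher in TBI than in Sham in 11 of 11 immune classes, from a median of 8.82 CPM to a median of 93.0 CPM. Sparc was likewise higher in 11 of 11, with medians of 8.82 and 48.1 CPM. The higher Mgp level in TBI was not particular to immune cells. Choroid plexus-like cells had 18.7 and 348 CPM of Mgp, and pineal gland-like cells 68.2 and 163 CPM. The F630028O10Rik-Gm46224 cluster had 174 and 508 CPM. Mgp was lower in TBI in fibroblast-like cells, the Cldn5-Slc38a5 cluster and the Ptgds-Nnat cluster. In B cell-like cells, 2.76% of the Sham and 24.8% of the TBI cells had an Mgp UMI, and 0.932% and 12.6% after thinning to 1000 UMIs. The TBI B cell-like cells held 2.07 Mgp UMIs per Sparc UMI (interval 1.42 to 3.05), and the TBI fibroblast-like cells 1.87 (interval 1.83 to 1.92). The share of all UMIs in fibroblast-like cells, 3.26% and 11.6%, moves with this level, and its part in it was not tested.

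Sparc, a collagen-binding matrix protein, had its highest level in Schwann-like cells, at 7834 CPM in Sham (568 UMIs) and 9356 CPM in TBI (1002 UMIs). Fibroblast-like cells followed with 5882 CPM (1510 UMIs) and 6260 CPM (10084 UMIs), a log2 ratio of 0.09 (interval 0.01 to 0.17), which was 0.23 (interval 0.14 to 0.32) without the highest cell of each library. Pericyte or smooth muscle-like cells had 4651 and 5371 CPM, and endothelial-like cells 2530 and 2931 CPM. With all cells kept, the intervals of these neighbours in the order did not overlap within either library. The highest Sham fibroblast-like cell held 276 of the 1510 UMIs, and the other 48 stood at 5138 CPM (1234 UMIs). That level lay closer to the 4651 CPM of Sham pericyte or smooth muscle-like cells. Whether the Sham intervals of these classes stay apart without that cell was not tested. In the Cldn5-Slc38a5 cluster Sparc went the other way, with 2521 CPM in Sham and 1403 CPM in TBI, a log2 ratio of -0.85 (interval -1.08 to -0.61).

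Spp1, which encodes osteopontin, had 951 UMIs in Sham and 632 in TBI over all kept cells. Of the Sham UMIs, 859 were in 1 fibroblast-like cell, 90.3% of the library's Spp1. By the sums, fibroblast-like cells had 3385 CPM in Sham (869 UMIs) and 135 CPM in TBI (218 UMIs), a log2 ratio of -4.64 (interval -4.87 to -4.43). Without that 1 cell the other 48 Sham fibroblast-like cells held 10 UMIs, 41.6 CPM, and the log2 ratio was 1.63 (interval 0.79 to 2.78). The highest TBI cell of the class held 85 of the 218 UMIs, and without the highest cell of each library the levels were 41.6 and 82.7 CPM, a log2 ratio of 0.92 (interval 0.07 to 2.08). The direction of the Spp1 difference therefore rested on 1 cell.

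That Sham cell had 16558 UMIs and was marked as a likely doublet by simulation. Besides Spp1 it held 55 of the 56 Postn UMIs of the Sham fibroblast-like cells, 276 Sparc, 92 Mgp, 8 Enpp1 and 1 Alpl UMI. It also held 19 of their 22 UMIs of Ank, a pyrophosphate transporter. Genes looked up after its values were seen were Acta2 (smooth muscle actin, 119 UMIs), Timp1 (a protease inhibitor, 112 UMIs) and Cthrc1 (a secreted collagen-regulating protein, 26 UMIs), which stood at 37.5, 200 and 29.1 CPM in the other 48 Sham fibroblast-like cells against 7187, 6764 and 1570 CPM in this one. It had 122 Col1a1, 73 Lum and 35 Dcn UMIs, and 0 UMIs of Ptprc (immune cells), Pecam1 (endothelium) and Rgs5 (pericytes). Whether it was 1 cell or more was not tested.

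**Figure D3:**
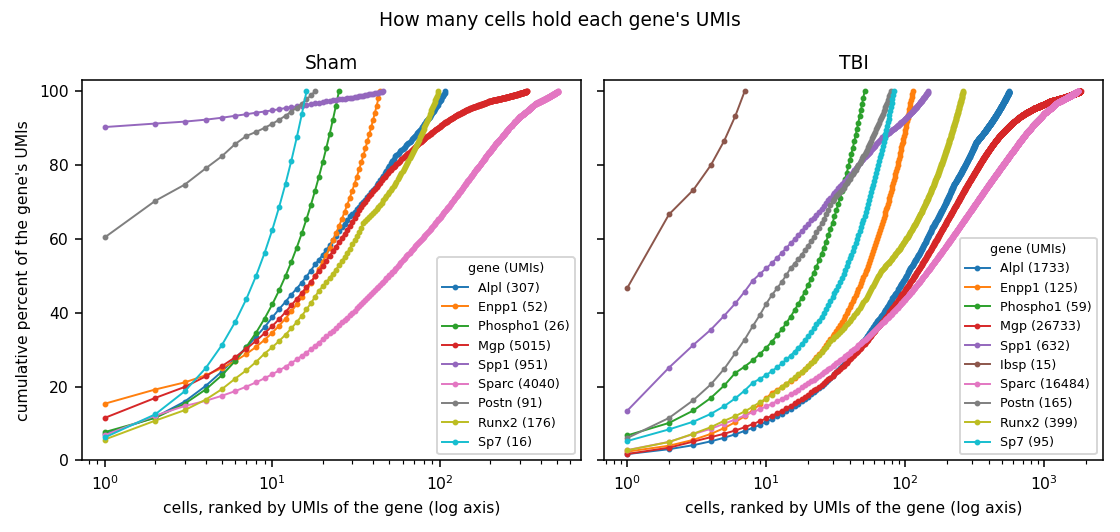
Cumulative percent of the UMIs of each gene (vertical axis) over kept cells ranked from the one with most UMIs (horizontal log axis), in Sham (left) and TBI (right), with the UMI total in the key. A curve that starts high belongs to few cells: 1 Sham cell holds 90.3% of Spp1 and 60.4% of Postn, and 1 TBI cell holds 46.7% of Ibsp.

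In TBI, Spp1 was spread over 147 cells, and its 9 highest cells held at least 50% of its UMIs. Apart from the Sham fibroblast-like sum, the highest levels were in Schwann-like cells, with 179 CPM in Sham (13 UMIs, interval 95.5 to 307 CPM) and 710 CPM in TBI (76 UMIs, interval 559 to 888 CPM). One TBI Schwann-like cell held 26 of the 76 UMIs. The Ptgds-Nnat cluster had 159 CPM (5 UMIs, interval 51.6 to 371 CPM) and 455 CPM (85 UMIs, interval 364 to 563 CPM), of which 39 UMIs were in 1 TBI cell. The intervals of these 2 classes overlapped in both libraries, so their order was not settled. The Snhg11-Mir100hg cluster had 66.5 CPM (6 UMIs) and 192 CPM (104 UMIs), of which 74 UMIs were in 1 TBI cell. Macrophage-like cells, often named as a source of osteopontin, had 14.3 CPM (22 UMIs) and 21.9 CPM (76 UMIs), with a log2 ratio of 0.60 (interval -0.08 to 1.38).

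Ibsp, the bone sialoprotein gene, had 0 UMIs in Sham and 15 UMIs in TBI. The Sham count allows up to 0.381 CPM, and the TBI level was 1.08 CPM, at least 2.82-fold higher by the TBI point value. The counting interval of the log2 ratio began at 1.02, and at -0.054 without the highest TBI cell. The 15 UMIs lay in 7 cells, and 2 cells of the Snhg11-Mir100hg cluster held 10 of them. The cell with 7 Ibsp UMIs had 1318 UMIs in all, with 74 Spp1, 13 Col1a1, 7 Sparc, 2 Runx2 and 1 Sp7 UMI and 0 Mgp and 0 Alpl UMIs. The cell with 3 Ibsp UMIs had 3 Spp1 UMIs. A B cell-like, a macrophage-like, a pineal gland-like, a fibroblast-like and another Snhg11-Mir100hg cell had 1 UMI each. The level thus describes a pair of cells rather than a class.

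Postn had 91 UMIs in Sham and 165 in TBI, 11.6 and 11.8 CPM. The Spp1-rich Sham cell held 55 of the 91 UMIs (60.4%), so the near-equal levels rested on that cell. Pericyte or smooth muscle-like cells had the highest level in both libraries, 289 CPM in Sham (12 UMIs, interval 149 to 505 CPM) and 500 CPM in TBI (61 UMIs, interval 383 to 643 CPM). Schwann-like cells had 248 CPM (18 UMIs) and 252 CPM (27 UMIs), which did not differ from the pericyte level in Sham beyond the counting intervals and lay below it in TBI. Fibroblast-like cells had 218 CPM in Sham and 26.1 CPM in TBI, a log2 ratio of -3.06 (interval -3.68 to -2.46). Without the 1 Sham cell described above, Sham was left with 1 UMI and the log2 ratio was 2.08 (interval 0.09 to 7.98).

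Runx2, the transcription factor that opens the osteoblast programme, was highest outside the bone lineage. Plasmacytoid dendritic-like cells (18 in Sham and 42 in TBI) had 429 CPM (62 UMIs, interval 329 to 550 CPM) and 406 CPM (109 UMIs, interval 333 to 489 CPM). They held 35.2% of the Sham and 27.3% of the TBI Runx2 UMIs. Runx2 is known to act in plasmacytoid dendritic cells too, apart from its role in bone.

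Fibroblast-like cells had 74.0 CPM of Runx2 in Sham (19 UMIs) and 72.6 CPM in TBI (117 UMIs), a log2 ratio of -0.06 (interval -0.73 to 0.76). The Snhg11-Mir100hg cluster had 122 and 131 CPM, with a log2 ratio of 0.05 (interval -0.82 to 1.17). The F630028O10Rik-Gm46224 cluster had 236 CPM in Sham (19 UMIs) and 89.3 CPM in TBI (16 UMIs), a log2 ratio of -1.39 (interval -2.46 to -0.36). In B cell-like cells there were 0 Sham UMIs and 1 TBI UMI.

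Sp7, the factor that acts after Runx2, had few UMIs, 16 in Sham and 95 in TBI. Fibroblast-like cells held 10 of the Sham UMIs (39.0 CPM, interval 18.7 to 71.6 CPM) and 54 of the TBI UMIs (33.5 CPM, interval 25.2 to 43.7 CPM), with a log2 ratio of -0.27 (interval -1.20 to 0.92). No Sham cell had more than 1 Sp7 UMI, and the highest TBI cell had 5. The Snhg11-Mir100hg cluster had 22.2 CPM (2 UMIs) and 46.1 CPM (25 UMIs), which overlap the fibroblast-like level. B cell-like cells had 0 Sp7 UMIs in both libraries.

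Within fibroblast-like cells, 8 of the 10 genes had at least 10 UMIs, with Phospho1 and Ibsp below. The median log2 ratio of these 8 was -0.21, and that of all 10978 genes with at least 10 UMIs was -0.08. At 2-fold or more, 0 of the 8 were higher in TBI, where 7.52% of all genes were, and 3 of the 8 were lower (Enpp1, Spp1 and Postn), where 6.7% of all genes were. None of these 3 was 2-fold lower without the 1 Sham cell. Leaving out predicted doublets, a group that includes this cell, gave log2 ratios of 0.14 for Enpp1, 1.57 for Spp1 and 3.6 for Postn. The other Sham fibroblast-like cells held 1 Postn UMI. The size of the Postn ratio therefore depends on the small number added to each sum and is not a measured level. The plot of fibroblast-like ratios shows the 8 genes with and without this cell.

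**Figure D4:**
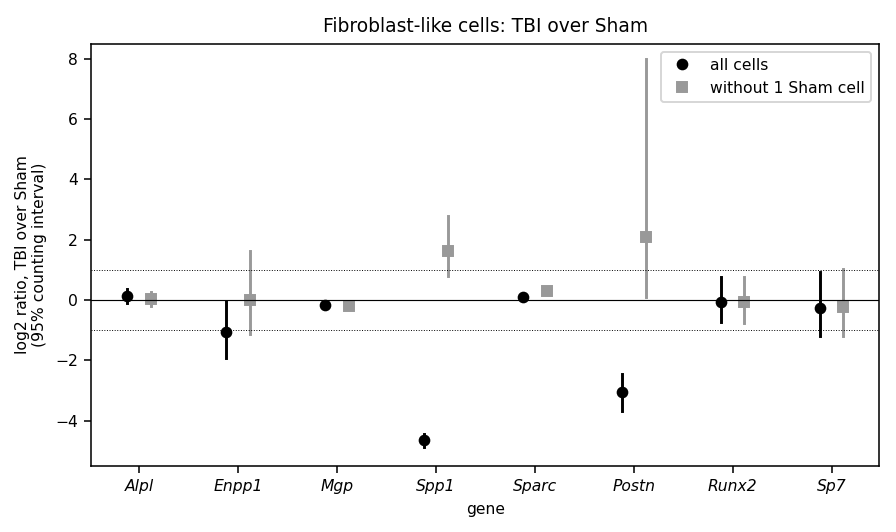
Log2 ratio of TBI over Sham in fibroblast-like cells for the 8 genes with at least 10 UMIs, with all cells (circles) and without the 1 Sham cell with 859 Spp1 UMIs (squares), lines giving 95% counting intervals and dotted lines 2-fold. Spp1 moves from -4.64 to 1.63 and Postn from -3.06 to 2.08, while the points of Alpl, Mgp, Sparc, Runx2 and Sp7 lie within 2-fold either way.

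Over all kept cells the picture was different. At 2-fold or more, 5 of the 10 genes were higher in TBI (Alpl, Mgp, Ibsp, Sparc and Sp7), where 10.5% of all 16053 genes were, and 1 was lower (Spp1), where 2.62% of all genes were. The median log2 ratio of the 10 was 0.82, also with Ibsp at its lower bound, against 0.11 for all genes. Alpl stood at 39.0 and 124 CPM (3.19-fold), Mgp at 638 and 1918 CPM (3.01-fold), Sparc at 514 and 1182 CPM (2.30-fold) and Sp7 at 2.03 and 6.81 CPM (3.35-fold). Spp1 was at 121 and 45.3 CPM (0.375-fold), and without the 1 Sham cell its log2 ratio was 1.94 (interval 1.63 to 2.28). Postn stood at 11.6 and 11.8 CPM, with 60.4% of its Sham UMIs in that same cell.

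When every class kept its Sham share of the UMIs and only the levels within classes were taken from TBI, the differences of Alpl, Mgp, Sparc and Sp7 were much smaller. Alpl then stood at 1.20-fold, Mgp at 1.16-fold, Sparc at 1.13-fold, Sp7 at 1.23-fold and Runx2 at 0.880-fold of Sham. Spp1 and Postn, whose Sham sums rest on 1 cell, moved the other way, to 0.210-fold and 0.651-fold. The higher whole-library levels of Alpl, Mgp, Sparc and Sp7 thus went with the class shares, among them the larger share of fibroblast-like UMIs in TBI. Whether that was a gain of cells in the tissue or in the suspension cannot be told apart.

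The fibroblast-like, Snhg11-Mir100hg and Ptgds-Nnat cells (136 in Sham and 784 in TBI) were clustered again, without the 10 genes, to see how the genes vary among them. This gave 9 subclusters. These are named by their 3 leading genes and described without a test. Alpl was highest in the Penk-Mia-Vnn1 subcluster, with 1134 CPM in Sham (16 cells, 118 UMIs) and 1009 CPM in TBI (132 cells, 610 UMIs), and its lowest summed level was 225 CPM in the Gm38190-Xpo7-Rian subcluster. Mgp and Sparc were highest in the Chad-Flt1-Cxcl14 subcluster, at 16506 and 9016 CPM over both libraries, but not in Sham alone. In Sham, Mgp was highest in the Penk-Mia-Vnn1 subcluster (15761 against 12886 CPM) and Sparc in the Col6a5-Epha3-Sfrp2 subcluster (10757 against 7528 CPM). Single cells held 35.3% of that Mgp (16 cells) and 49.9% of that Sparc (14 cells). Among the 12 Sham cells of the Chad-Flt1-Cxcl14 subcluster, single cells held 27.0% of Mgp and 47.1% of Sparc. Whether the Sham order holds without such cells was not tested. Runx2 was highest in the Col6a5-Epha3-Sfrp2 subcluster, at 173 CPM (interval 130 to 227 CPM), which overlaps the next levels. Sp7 ranged from 5.6 to 51.1 CPM over the subclusters with intervals that mostly overlapped. The lowest of these levels was 1 UMI in the 25 cells of the Alox5ap-Plac8-C1qc subcluster. C1qc is one of the macrophage markers, so this subcluster may not be of connective tissue cells alone.

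One subcluster of 60 cells (7 in Sham and 53 in TBI) was led by Bglap2, Tnc and Bglap, with Bglap and Bglap2 encoding osteocalcin and a near-identical copy. It held 11 of the 15 Ibsp UMIs, and its Spp1 level was 348 CPM in Sham (7 UMIs) and 2104 CPM in TBI (212 UMIs). The TBI UMIs of Spp1 were in 10 of the 53 cells. One cell held 85 of them, and the cell with 7 Ibsp UMIs held 74. The level thus describes mainly a pair of cells. The Mgp level of this subcluster was 10434 CPM over both libraries. The Spp1 level of the Chad-Flt1-Cxcl14 subcluster, 1774 CPM, came to 99.0% from the 1 Sham cell.

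**Figure D5:**
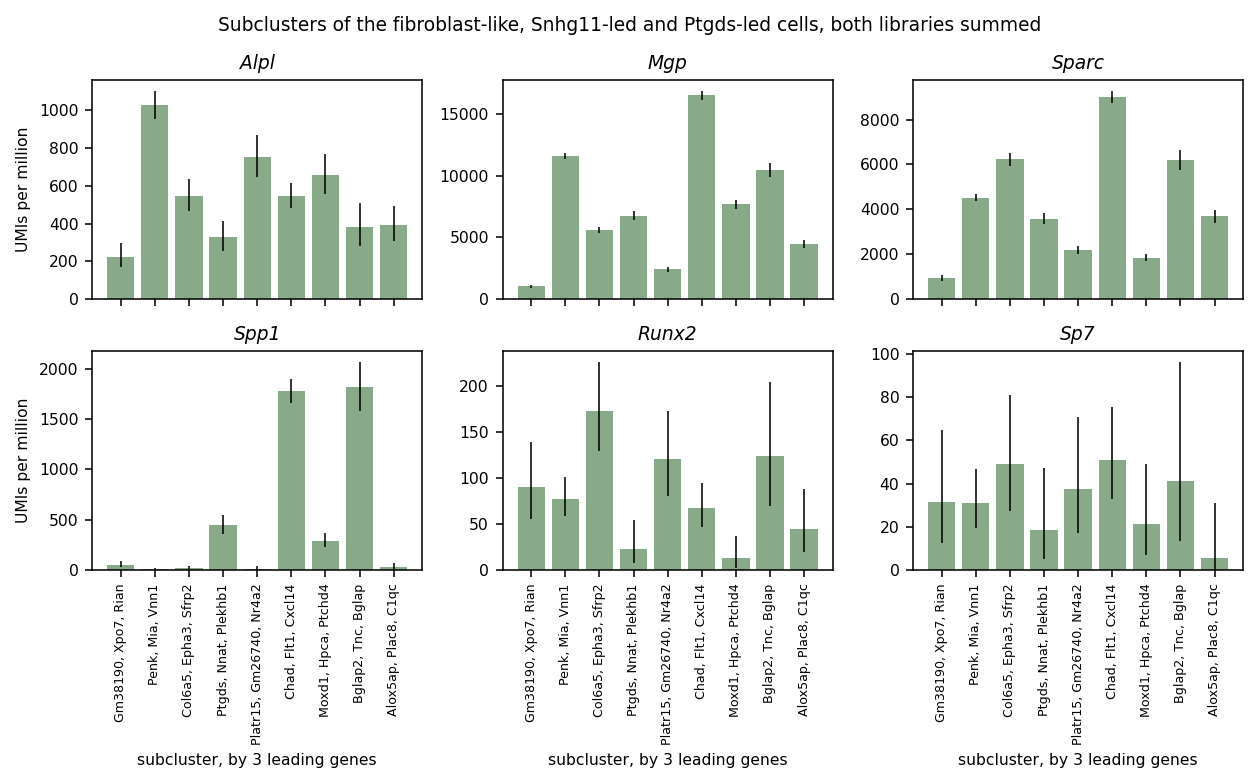
CPM of 6 of the genes (vertical axes, a scale per gene) in the 9 subclusters of the fibroblast-like, Snhg11-Mir100hg and Ptgds-Nnat cells. Both libraries are summed, with 95% counting intervals. Alpl peaks at 1028 CPM in the Penk, Mia, Vnn1 subcluster, the summed Mgp and Sparc in the Chad, Flt1, Cxcl14 subcluster, and Spp1 in the latter, where 1 Sham cell holds 99.0% of it, and in the Bglap2, Tnc, Bglap subcluster.

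Osteocalcin UMIs were held by few cells as well. In TBI, 8 cells had at least 4 UMIs of Bglap, Bglap2 and Bglap3 together. All 8 had Sparc (4 to 34 UMIs), 6 had Alpl, 4 had Spp1, 1 had Sp7 and 1 had Ibsp, and none had more than 2 Mgp UMIs. One of these cells had 38 osteocalcin UMIs with 20 Spp1 and 1 Ibsp UMI, and another had 35 with 85 Spp1 UMIs. In Sham the 1 such cell was the Spp1-rich one, with 5 osteocalcin and 92 Mgp UMIs. Bglap and Bglap2 stood at 11.7 and 7.79 CPM in Sham fibroblast-like cells (3 and 2 UMIs, all in the Spp1-rich cell) and at 34.8 CPM each in TBI (56 UMIs each), and 3 TBI cells held 78.6% of Bglap.

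The other genes of these pathways, taken as 10 lists of 67 genes, gave the following counts in fibroblast-like cells, where 7.52% and 6.7% of all genes were 2-fold higher and lower. Of 15 osteoblast and osteocyte genes 6 had at least 10 UMIs, with a median log2 ratio of 0.33, 2 of them 2-fold higher (Bglap, with an interval from -0.049 to 3.89, and Bglap2) and 1 lower (Dlx5, with an interval from -2.27 to 0.30). The osteocyte genes Dmp1, Mepe and Sost had 0 UMIs in all kept cells. Of 9 phosphate and pyrophosphate genes 6 had enough UMIs, with a median of -0.16 and 1 past 2-fold, namely Ank (22 and 28 UMIs, log2 ratio -2.31), of whose Sham UMIs 19 were in the 1 cell.

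Of 12 calvarial and periosteal progenitor genes 10 had at least 10 UMIs, with a median of -0.07 and 1 lower by 2-fold (Lepr). Over both libraries summed, Ctsk, Six2 and Ogn had their highest level in fibroblast-like cells. Ctsk, which marks periosteal stem cells as well as osteoclasts, stood there at 218 and 305 CPM, a log2 ratio of 0.47 (interval 0.08 to 0.91). Six2 (50.6 and 77.0 CPM) and Ogn (1733 and 1314 CPM) had log2 ratios of 0.56 (interval -0.22 to 1.55) and -0.40 (interval -0.55 to -0.25). In Sham alone Six2 was higher in the Snhg11-Mir100hg cluster, at 88.6 CPM (8 UMIs). That cluster had 31.3 CPM of Six2 in TBI (17 UMIs), a log2 ratio of -1.55 (interval -2.79 to -0.079). The 3 genes of the vitamin K cycle, which activates Mgp protein, were all measured and none passed 2-fold, with Vkorc1 at 397 and 380 CPM. Of 8 osteoclast genes 2 had enough UMIs and none passed 2-fold. Of 8 osteopontin receptor genes 6 had, with 1 lower (Cd44, 7 and 19 UMIs).

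Of 7 chondrocyte genes 5 had at least 10 UMIs, with a median of -0.09, 1 higher by 2-fold (Chad) and 1 lower (Cnmd, 3 and 10 UMIs). Chad, a cartilage matrix protein, stood at 19.5 CPM in Sham (5 UMIs in 2 cells) and 305 CPM in TBI (492 UMIs in 28 cells), a log2 ratio of 3.83 (interval 2.74 to 5.6). The share of fibroblast-like cells with a Chad UMI was 4.08% and 6.68%, and 3 TBI cells held 54.3% of its UMIs. Comp, a pentameric protein of cartilage and tendon, was at 499 and 546 CPM. The 2 genes of the dural layer, the 2 of the arachnoid layer and the 1 of the pial layer were all measured, with medians of 0.21, 0.07 and -0.53 and none past 2-fold.

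The genes most alike in level were searched over the 48 profiles (24 classes in 2 libraries) among 11704 genes with at least 100 UMIs, by Pearson's r of log2(CPM + 1). These profiles share libraries and differ in depth, so r is a description. Sparc was most like Npdc1, Fermt2 and Fstl1 (r = 0.93, 0.92 and 0.92), Mgp most like Igfbp5, Dcn and Cp (0.87, 0.87 and 0.85), and Sp7 most like Slc47a2, Itga11 and Podn (0.88, 0.85 and 0.85). Alpl was most like Kcnj2, Serpinf1 and Snai1 (0.80, 0.78 and 0.78), Postn most like Il34, Adamts12 and Scn7a (0.89, 0.87 and 0.87) and Spp1 most like S100b, Lpar1 and D630003M21Rik (0.83, 0.83 and 0.78). The likeness was weaker for Runx2 (Ctnnd2, 2900005J15Rik and Cracr2a, 0.67, 0.66 and 0.66) and for Enpp1 (Ust, Prss12 and Cdkn2c, 0.62, 0.61 and 0.60). Among the 10 genes themselves, Sparc and Mgp were most alike (r = 0.76), and Alpl and Runx2 were at 0.09.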

How the data were processed

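The authors mapped the reads of each 10x Genomics 3' v2 library to mm10 with Cell Ranger (version 2.1.1 per the processing notes, another version in the methods, 3.1.0 in the matrix header) and deposited UMI counts per gene and barcode. The processing notes also name Seurat 3.9.9 and DESeq2 1.30.0. Of the annotation release the sources used here say nothing. These counts were whole numbers and still held barcodes outside the study's filters.

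Cells with 150 to 5000 genes, at most 20% mitochondrial and at most 5% hemoglobin UMIs were kept, as in the study's methods and a few fewer than these state. The 2000 most variable genes, without the 10 genes and the list genes, gave 20 principal components and Leiden clusters at resolution 0.8 (python 3.11.15, leidenalg 0.10.2). Names needed 3 or more class markers within a cluster's 50 leading genes by fold, each seen in 10% or more of the cells. Likely doublets (33 Sham, 114 TBI) were predicted by simulation and kept. UMIs were summed per class and library. Log2 ratios had 0.5 added to each sum, with exact binomial intervals, and levels exact Poisson intervals. Intervals for shares of cells were exact binomial, and a count of 0 was read as up to 3 counts. Scripts were tested on simulated data. The rule for named genes was the 10 genes everywhere, list genes as counts with values for those highest in fibroblast-like cells or held with Ibsp or Sp7 in a cell, and the 3 genes most alike. Entpd5, Twist1, Vkorc1l1, Acan and Itgb5 were also highest in fibroblast-like cells over both libraries summed, but are given without values. None of them passed 2-fold there. Other list genes past 2-fold and the genes of the Spp1-rich cell were named after their values were seen. The 10 genes, the lists and the classes were chosen with earlier results of these data known. Gene positions are from GENCODE vM21.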

Additional observations from a re-analysis of the deposited data

Results flagged for a closer look

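Barcodes removed by the filters carried some of the genes above the level of the removed Sham barcodes, beyond counting intervals. In the removed TBI barcodes Alpl was at 52.3 CPM (56 UMIs), Mgp at 498 CPM (533 UMIs), Spp1 at 14.0 CPM (15 UMIs) and Sparc at 465 CPM (498 UMIs). In the removed Sham barcodes they were at 8.43, 53.6, 3.01 and 68.0 CPM. The removed sets differed in their mix. Barcodes with over 50% hemoglobin held 1273650 of the 1660723 removed UMIs in Sham and 626476 of 1070339 in TBI. Within the barcodes with over 50% hemoglobin alone, Mgp was at 18.1 CPM in Sham (interval 11.4 to 27.1 CPM) and 161 CPM in TBI (131 to 196 CPM). Sparc was at 16.5 CPM (10.2 to 25.2 CPM) and 95.8 CPM (73.1 to 123 CPM) there. Alpl was at 2.36 and 14.4 CPM, from 3 and 9 UMIs, with overlapping intervals. The part of the mix in the levels of the removed sets was not tested.

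Some ratios of TBI over Sham pointed one way in fibroblast-like cells and the other way in another class, each beyond its counting interval, though the difference itself was not tested, since there is 1 library per group. For Mgp the fibroblast-like log2 ratio of -0.15, which was 0.054 without the Sham cell with most Mgp UMIs, stood beside 1.36 in endothelial-like cells, 0.82 in the Vwf-Slco2a1 cluster, 0.19 in pericyte or smooth muscle-like cells and 0.70 in the Snhg11-Mir100hg cluster. Mgp was also higher in TBI in 11 of 11 immune classes and in choroid plexus-like cells (18.7 CPM in Sham and 348 CPM in TBI). The part of this wider difference in the ratios was not tested. For Spp1 the fibroblast-like ratio of -4.64, which was 1.63 without 1 Sham cell, stood beside 1.42 in the Snhg11-Mir100hg cluster, 1.39 in the Ptgds-Nnat cluster and 1.94 in Schwann-like cells. Single TBI cells held 74 of the 104 TBI Spp1 UMIs of the Snhg11-Mir100hg cluster, 39 of 85 in the Ptgds-Nnat cluster and 26 of 76 in Schwann-like cells. The Spp1 ratio of the Snhg11-Mir100hg cluster thus describes mainly 1 TBI cell. Whether the Spp1 ratios of these classes keep their direction without those cells was not tested. For Sparc 0.09 stood beside -0.85 in the Cldn5-Slc38a5 cluster.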

How the results depend on the processing

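The fibroblast-like share of the 10 genes' UMIs (64.2%) was 71.0% at Leiden resolution 0.4 or with the Snhg11-Mir100hg and Ptgds-Nnat clusters joined, 31.5% at resolution 1.6, where the class had 25 Sham and 176 TBI cells, 63.5% without predicted doublets, 64.9% without the hemoglobin limit, 49.5% as a mean over cells, 61.0% without the top 3 cells of each gene and library, 66.5% with the B cell-like level subtracted 63.4% without the 1 Sham cell with most Spp1, 63.8% without the 1 with most Mgp and 62.4% without the top cell of each gene and library. The median log2 ratio in fibroblast-like cells (-0.21) was 0.078 without doublets, 0.46 without the top 3 cells and 0.20 without the top cell. The number of genes past 2-fold there (3) was 1 as a mean over cells or without the top cell, 5 with no minimum of UMIs and 1 at a minimum of 100 UMIs. Over all kept cells the median (0.82) was 1.52 without doublets, 1.64 without the top 3 cells, 1.26 without the top cell and 1.48 without the 1 Sham cell with most Spp1.

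Ratios past 2-fold that changed sign were those of Enpp1, Spp1 and Postn. In fibroblast-like cells they were 0.14, 1.57 and 3.6 without doublets, and 0.58, 1.91 and 2.55 without the top 3 cells. These Postn values rest on at most 1 Sham UMI, so their size depends on the number added to each sum. Without the 1 Sham cell Spp1 was 1.63 and Postn 2.08, and without the top cell of each library they were 0.92 and 1.74. Over all kept cells Spp1 was 2.03 without doublets, 1.64 without the top 3 cells, 1.94 without the 1 Sham cell, 1.74 without the top cell and 0.75 as a mean over cells. In each setting but the mean over cells, that Sham cell was left out. The joined class and the settings that leave out 1 cell were chosen after seeing the data. No replicate could be left out, and no paired analysis was possible because each group has 1 library.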
